A study of Mus musculus with 2 samples.

Results

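To examine which signals to myeloid cells were transcribed in cultures grown from mammary basal cells, 10 ligand genes were followed in the deposited table of 49492 genes. They are the CC chemokines Ccl2, Ccl5, Ccl7, Ccl20 and Ccl28, the CX3C chemokine Cx3cl1, the colony stimulating factors Csf1, Csf2 and Csf3, and Il34. They were taken by gene name because their proteins recruit or feed monocytes, macrophages, dendritic cells and granulocytes. The choice was made with earlier results of these data known. Each was compared between the control library (ctrl) and the library of co-cultured cells (M2). Both libraries came from wild-type (WT) primary epithelial cells, sorted as basal cells from glands of adult female mice and cultured in a 3D gel. The ctrl cells received no treatment, while the M2 cells shared their wells with M2-like macrophages, bone marrow-derived cells polarised with Il-4 and Il-13 according to the study's methods and held in an insert above the gel. Harvest followed 11 to 14 days of culture. Each group holds 1 library, so the spread between cultures is unknown, and co-culture and other differences between both cultures cannot be told apart.

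Chemokines are small secreted proteins that bind G protein-coupled receptors and guide leukocytes along their gradients. Cx3cl1 is unusual in that it is made as a membrane-anchored protein and becomes soluble when sheddases cut it. Colony stimulating factors act on cytokine or tyrosine kinase receptors and keep myeloid cells alive, dividing or maturing. Csf1 and Il34 share the receptor Csf1r, and Csf1 is required for the normal macrophage population of the mammary gland and for branching of its ducts.

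The ctrl library held 26912610 reads in genes and the M2 library 29413844. Epithelial identity was clear in both: Krt14, a basal keratin, stood at 1698 and 1361 reads per kilobase of exon, scaled to library size (RPKM) in ctrl and M2, and the adhesion gene Epcam at 373 and 388 RPKM. The study's flow cytometry of such cultures found mostly luminal cells in both groups, with a larger basal share in co-culture. Levels given here are therefore those of mixed epithelial cells. Of 20 macrophage markers, 8 (Ptprc, Adgre1, Tyrobp, Fcer1g, Laptm5, Chil3, C1qb and C1qc) had 0 reads in both libraries, which allows up to 3 reads each, or 0.109 and 0.104 CPM, the reads scaled to library size alone. Others had reads in both, among them Arg1 (1507 in ctrl, 2090 in M2), Cd68 (170, 165) and Csf1r (94, 92), and Cd163 rose from 2 to 30.

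All 10 ligand genes had at least 10 reads over both libraries and were tested, but 7 of them had fewer than 30 reads in ctrl and 4 (Ccl5, Ccl7, Ccl20 and Csf2) had fewer than 10, so that these 4 passed through their M2 reads. The list was also chosen with earlier results of these data known. The counts and the median over the list are therefore a description. Of the 10 genes, 6 were called higher in M2 (Ccl2, Ccl5, Ccl20, Ccl28, Csf2 and Csf3), 0 were called lower and 4 were not called. A call required an adjusted p under 0.05 in a two-sided exact binomial test on the reads and at least a 2-fold difference. Among all 19233 genes tested, 8.16% were called higher and 6.55% lower. By size alone, 9.53% of all genes were at least 2-fold higher and 7.82% at least 2-fold lower, against 7 and 0 of the 10 ligand genes. The median log2 difference was 1.80 over the 10 genes and -0.0032 over all genes. These tests compare 2 libraries and cover counting error only.

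Levels are compared between genes per exon length, with exact Poisson intervals of the reads. Both libraries were dominated by the same pair of ligands. Cx3cl1 stood at 92.7 RPKM in ctrl (95% interval 90.9 to 94.5) and 87.3 in M2 (85.6 to 89.1), and Csf1 at 33.8 (32.9 to 34.8) and 46.0 (44.9 to 47.1). Together they held 95.5% of the summed level of the 10 genes in ctrl and 81.1% in M2. This placed Cx3cl1 at percentile 97.3 of all genes tested in ctrl and Csf1 at percentile 91.5. In ctrl, Il34 followed at 4.09 RPKM, and its interval lay apart from those of its neighbours in the order. The remaining 7 genes stood between 0.0379 and 0.644 RPKM there, and none of the 6 pairs of neighbours among them could be told apart by their intervals. In M2 the order was Cx3cl1, Csf1, Csf3 and Ccl2, each with an interval apart from that of the gene above it. Ccl20, Il34 and Csf2 followed at 2.66, 2.60 and 2.34 RPKM, with intervals that overlapped each other and that of Ccl2. Ccl7, Ccl28 and Ccl5 came last. The summed level of the 10 genes was 133 RPKM in ctrl and 164 in M2. Without Cx3cl1 and Csf1 it was 5.97 and 31.1 RPKM.

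**Figure D1:**
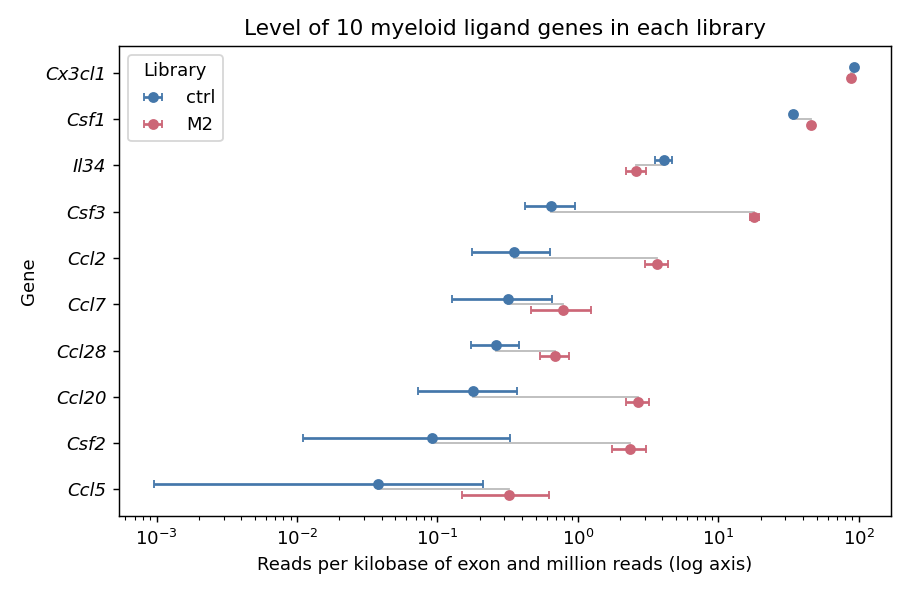
Level of each ligand gene (y axis) in ctrl (blue) and M2 (red), in RPKM on a log x axis, 1 library each. Points are the levels, bars are 95% exact Poisson intervals of the reads, and grey lines join the libraries. Cx3cl1 and Csf1 lie furthest to the right in both libraries, while Csf3 moves from 0.644 to 18.1.

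Csf3 differed most, and Csf2 came next with 1 read added to each library, while with 5 reads added Ccl20 (log2 difference 3.18) passed Csf2 (3.01). Csf3 encodes G-CSF, the main growth factor of the neutrophil lineage. Csf3 (chromosome 11, 98701263 to 98703629) was covered by 25 ctrl reads and 736 M2 reads. Its log2 difference with 1 read added to each library was 4.76. Without added reads the ratio was 28.1-fold, with a 95% interval of 4.24 to 5.45 on the log2 scale (adjusted p = 4.22e-174, exact binomial test). Its level reached percentile 82.9 of all genes in M2, and its difference ranked 58 among the 19233 genes tested. Csf3 alone held 0.486% of the summed ligand level in ctrl and 11.0% in M2.

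Csf2 encodes GM-CSF, which promotes granulocytes, macrophages and dendritic cells. Csf2 (chromosome 11, 54247271 to 54249667) was covered by 2 ctrl and 54 M2 reads. The ratio was 25.7 with a counting interval of 6.79 to 218, and the log2 difference with 1 read added to each library was 4.13 (adjusted p = 4.61e-13, exact binomial test). With only 2 ctrl reads, the size of the change is known within a wide range, and the 2 reads are within the 3 that a count of 0 allows. The exons of Csf2 overlap those of Gm12223, a gene on the other strand, by 96 bases. Gm12223 itself had 1 read in ctrl and 20 in M2. Because the use of strand in counting is not given in the sources used here, reads in the shared stretch cannot be assigned to one gene.

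Csf1 and Il34, both ligands of Csf1r, were not called, and their values had opposite signs. Csf1 (chromosome 3, 107741048 to 107760469) went from 4909 to 6997 reads, a log2 difference of 0.44 (0.39 to 0.50). Il34 (chromosome 8, 110741829 to 110805924) went from 220 to 147 reads, a log2 difference of -0.65 (-0.96 to -0.34). The adjusted p was 1.94e-60 for Csf1 and 6.78e-05 for Il34 in the exact binomial test, so the reads of each separated the libraries, but both stayed under a 2-fold difference. The level of Csf1 was 8.28 times that of Il34 in ctrl and 17.7 times in M2. This pair was chosen after the values were seen, so the ratios are given with no test. Il34 overlaps Gm15894 and Gm15895 on the other strand by 22 and 75 exonic bases, and these had 51 and 58 reads in ctrl and 21 and 16 in M2.

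**Figure D2:**
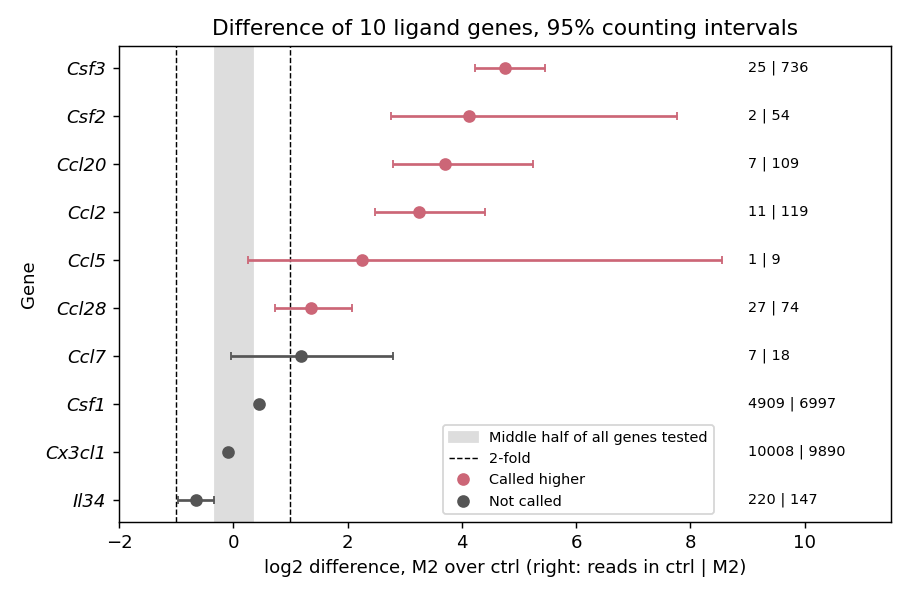
The log2 difference of each ligand gene, M2 over ctrl (x axis), with 95% Clopper-Pearson intervals, and the reads in ctrl and M2 printed at the right. Red points were called higher, grey points were not called, dashed lines mark 2-fold, and the grey band spans the quartiles of all genes tested, -0.32 to 0.35. Csf3, Csf2, Ccl20 and Ccl2 have intervals wholly above 2-fold, and those of Ccl5 and Ccl28 cross it.

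Among the CC chemokines, Ccl20 and Ccl2 rose most. Ccl20, an attractant of Ccr6-bearing dendritic cells and lymphocytes made by many epithelia, lies on chromosome 1 (83116766 to 83119167). The ctrl library held 7 of its reads and the M2 library 109, a log2 difference of 3.71 (2.80 to 5.24; adjusted p = 6.11e-23, exact binomial test). Its level was 0.179 RPKM in ctrl and 2.66 in M2. Ccl2, the main attractant of Ccr2-bearing monocytes, lies on chromosome 11 (82035571 to 82037453). With 11 and 119 reads, it differed by 3.25 on the log2 scale (2.47 to 4.41), with levels of 0.352 and 3.63 RPKM. For both genes the lower limit of the interval lay above 2-fold.

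Ccl28, Ccl5 and Ccl7 rested on fewer reads. Ccl28, a mucosal chemokine that guides Ccr10-bearing plasma cells to the lactating gland, lies on chromosome 13 (119623819 to 119654354). Its reads numbered 27 and 74, and its log2 difference of 1.35 (0.73 to 2.08) was called (adjusted p = 2.81e-05, exact binomial test). Ccl5 (chromosome 11, 83525778 to 83530518), which attracts T cells and monocytes, had 1 ctrl read and 9 M2 reads. Its ratio was 8.58 with a counting interval of 1.19 to 376, and its adjusted p, 0.0419 by the exact binomial test, was near the threshold. When genes with as little as 1 read were also tested, the adjusted p was 0.0581 and Ccl5 was no longer called. Ccl7 (chromosome 11, 82045712 to 82047525), a relative of Ccl2 that also binds Ccr2, had 7 and 18 reads. Its log2 difference of 1.18 had an interval of -0.03 to 2.80 (adjusted p = 0.0791, exact binomial test), so that a difference was not detectable at this depth. By qPCR scaled to Gapdh, the study's text reports both Ccl2 and Ccl7 as raised in M2 co-culture. The legend of that figure names TNF-α-treated basal cells instead. The level of Ccl2 was 1.11 times that of Ccl7 in ctrl and 4.65 times in M2, again a description with no test.

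Sequence shared with other genes was counted to see where reads could be split. In the GENCODE M21 transcripts, 0 of the 100-base words of any of the 10 ligand genes occurred in a transcript of another gene. For words of 50 bases the shared part was 6.39% for Csf2, through Gm12223, 1.30% for Il34, through 1 antisense gene, and 0.209% for Ccl28, and it was 0% for Ccl2, Ccl5, Ccl7 and the other 4 genes.

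Cx3cl1 (chromosome 8, 94772009 to 94782427), which attracts and retains Cx3cr1-bearing monocytes and macrophages, differed little. With 10008 and 9890 reads, its log2 difference was -0.09 (-0.13 to -0.05). The pair of ligands with the most transcripts differed by less than 2-fold, whereas the 6 called genes had levels of 0.0379 to 0.644 RPKM in ctrl.

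**Figure D3:**
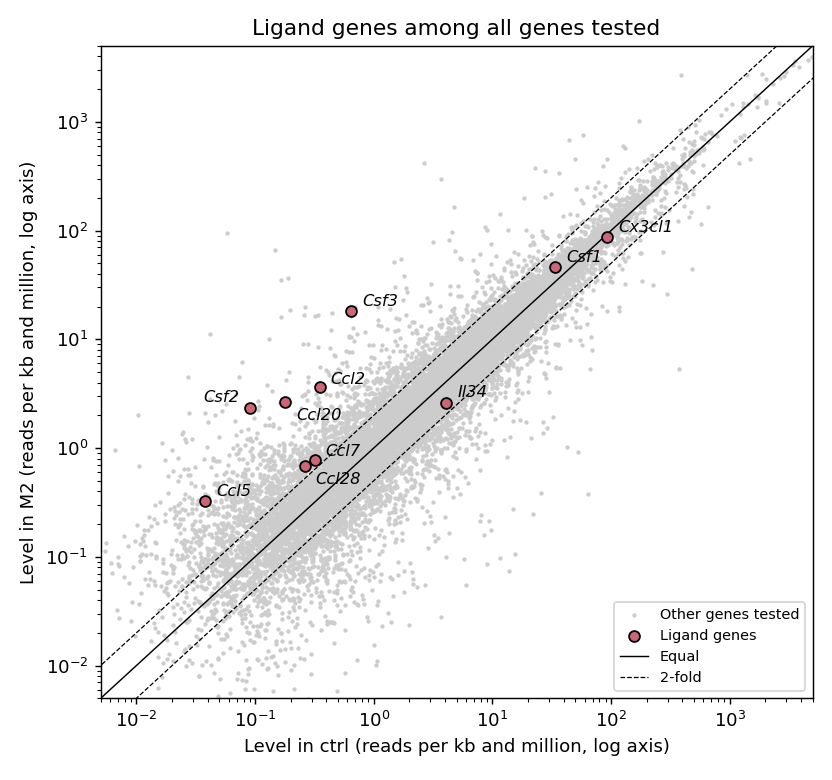
Level of every gene tested with reads in both libraries, ctrl on the x axis and M2 on the y axis, in RPKM on log axes, with the ligand genes in red. The solid line marks equal levels and the dashed lines 2-fold. Cx3cl1 (92.7 and 87.3) lies close to the line of equal levels, and Csf3, Csf2, Ccl20 and Ccl2 lie far above it.

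Promoter sequences were read to show how a ligand that rose strongly, a ligand high in both libraries and a ligand that rose modestly begin. RefSeq (GRCm38.p6) promoters were given for 5 of the 10 genes, Ccl20, Ccl28, Cx3cl1, Csf1 and Csf2. The 250 bases before the start site are printed for Ccl20 (chr1:83116516-83116765, plus strand), Csf1 (chr3:107760470-107760719, minus strand) and Ccl28 (chr13:119623569-119623818, plus strand), whose RefSeq start sites coincide with those of the table. Capitals mark matches on either strand to the kappaB consensus, the binding motif of NF-κB factors.
Ccl20: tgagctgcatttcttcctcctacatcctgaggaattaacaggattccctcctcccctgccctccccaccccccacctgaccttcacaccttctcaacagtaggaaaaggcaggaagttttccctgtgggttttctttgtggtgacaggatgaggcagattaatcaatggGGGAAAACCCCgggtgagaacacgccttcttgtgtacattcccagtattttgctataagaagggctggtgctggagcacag
Csf1: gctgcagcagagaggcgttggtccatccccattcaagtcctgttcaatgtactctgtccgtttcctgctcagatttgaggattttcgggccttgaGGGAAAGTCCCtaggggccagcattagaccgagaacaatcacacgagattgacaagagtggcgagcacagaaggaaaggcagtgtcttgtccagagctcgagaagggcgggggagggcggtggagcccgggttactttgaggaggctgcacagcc
Ccl28: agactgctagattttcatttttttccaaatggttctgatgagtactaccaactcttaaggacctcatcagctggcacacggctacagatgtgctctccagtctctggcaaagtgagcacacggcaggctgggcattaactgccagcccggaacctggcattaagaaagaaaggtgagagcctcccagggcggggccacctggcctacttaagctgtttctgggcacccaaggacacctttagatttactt
In Ccl20 the matches are 2 overlapping words on the minus strand, from 81 to 71 bases before the start. Csf1 likewise holds 2 overlapping words, from 155 to 145 bases before the start. Cx3cl1 holds 1 match, 94 to 85 bases before its RefSeq start, and Ccl28 and Csf2 hold none in these windows. The RefSeq starts of Cx3cl1 and Csf2 lie 171 and 232 bases from those of the table. For Csf2 the RefSeq start lies upstream, so the bases directly before the table's start were not read. A kappaB match occurred in 16.8% of 32851 RefSeq promoters of this length, so 3 of 5 promoters is a description of these windows only. The AP-1 motif TGANTCA was found in 0 of the 5 windows and in 6.75% of all. The TATA box letters TATAAA were found in 1 of the 5, that of Cx3cl1, and in 12.4% of all. In Cx3cl1 they lie 6 to 1 bases before the RefSeq start, and whether they act as a TATA box was not tested. The kappaB letters were held by Ccl20 (7 and 109 reads), Csf1 (4909 and 6997) and Cx3cl1 (10008 and 9890). They were not found for Ccl28 (27 and 74 reads) or Csf2 (2 and 54) in these windows. Any part of these letters in the differences was not tested.

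To ask whether genes of NF-κB feedback differed beside the ligands, 10 factors and inhibitors were counted. Of these, 4 were called higher, 0 lower and 6 were not called, against 8.16% of all genes called higher and 6.55% lower. The median log2 difference was 0.91, and -0.0032 over all genes. The called genes act within the pathway: Tnfaip3, an enzyme that removes signalling ubiquitin chains (312 and 1836 reads, 2.48), Birc3, a ubiquitin ligase of TNF receptor complexes (282 and 992 reads, 1.74), the inhibitor Nfkbie (1.47), and Nfkbiz (1.35), a nuclear IκB protein that helps induce some NF-κB targets. The inhibitor Nfkbia differed by 0.88. Of the 5 subunits, Rel differed by 0.95, Relb by 0.87, Nfkb2 by 0.60, Nfkb1 by 0.30 and Rela by -0.28, all under 2-fold and so not called.

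Receptors for these ligands were few in the same libraries. Of 14 receptor and co-receptor genes, 7 had at least 10 reads and 7 did not. Of the 7 tested, 0 were called higher and 1 lower, against 8.16% and 6.55% of all genes. Csf1r had 94 reads in ctrl and 92 in M2, Csf3r, Ccr3 and Ccr6 had 0 in both, and Ccr1, Ccr2 and Cx3cr1 had at most 2 in either. The alpha chain of the GM-CSF receptor, Csf2ra, was present at 518 and 463 reads (log2 difference -0.23), while its beta chain Csf2rb had 6 and 13. The gene called lower was Ptprz1, a receptor phosphatase that also binds Il34, which fell from 3431 to 1167 reads (log2 difference -1.62, -1.72 to -1.53). Sdc1, a heparan sulphate proteoglycan that can bind Il34, stood highest at 154 and 186 RPKM and differed by 0.27.

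Atypical chemokine receptors and genes of shedding were examined next. Atypical chemokine receptors bind chemokines without classical signalling. Of 5 such genes 3 were tested and 2 were called higher, Ccrl2 (53 and 202 reads, log2 difference 1.84) and Ackr3 (161 and 361 reads, 1.09), while Ackr4 (305 and 320 reads) differed by less than 0.01. Of the 5 genes that control shedding of Cx3cl1 and Csf1 from the membrane, 0 were called. The sheddase Adam10 stood at 42.5 and 47.3 RPKM, Adam17 differed by 0.51, its partner Rhbdf1 by -0.05 and its inhibitor Timp3 by -0.53.

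Other members of the CC family were counted as well. Of 17 further CC and C chemokine genes, 5 had enough reads and 0 of these were called by the exact binomial test. Ccl25 (129 and 132 reads) and Ccl27a (95 and 61 reads) had the most reads, with log2 differences of -0.04 and -0.70 (-1.20 to -0.23). Per length, Ccl27a stood at 1.45 RPKM in ctrl and 0.890 in M2, and Ccl25 at 0.631 and 0.615. In ctrl both lay above the 5 CC ligand genes, of which Ccl2 was highest at 0.352 RPKM. In M2 Ccl2 (3.63 RPKM) and Ccl20 (2.66 RPKM) lay above both. In the cluster of 6 CC chemokine genes that spans 270 kb of chromosome 11 from Ccl2 to Ccl1, only Ccl2 and Ccl7 reached 10 reads. Ccl11, Ccl12, Ccl8 and Ccl1 had 1, 0, 1 and 4 reads in ctrl and 2, 0, 7 and 2 in M2.

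CXC chemokines, many of which act on neutrophils, were set beside the ligand genes. Of 15 CXC genes, 13 were tested, of which 8 were called higher and 2 lower, with a median log2 difference of 1.52. Among all genes tested, 8.16% were called higher and 6.55% lower. Cxcl3, Cxcl9 (6 reads in ctrl, 20 in M2) and Cxcl11 (0 in ctrl, 11 in M2) had enough reads for testing only through M2. Cxcl13 had enough only through ctrl. The counts and the median of this list are therefore a description. Cxcl1 rose from 6471 to 32661 reads (2.27), Cxcl5 from 190 to 16152 (6.33), and Cxcl3 from 1 to 205, with a lower interval limit of 5.12. Cxcl2, Cxcl9, Cxcl10, Cxcl11 and Cxcl15 were the others called higher. Cxcl14 fell from 24280 to 2323 reads (-3.45) and Cxcl13 from 42 to 1. Per length, Cxcl1 reached 604 RPKM and Cxcl5 301 RPKM in M2, against 18.1 RPKM for Csf3 and 3.63 RPKM for Ccl2. The difference between both lists was not tested.

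**Figure D4:**
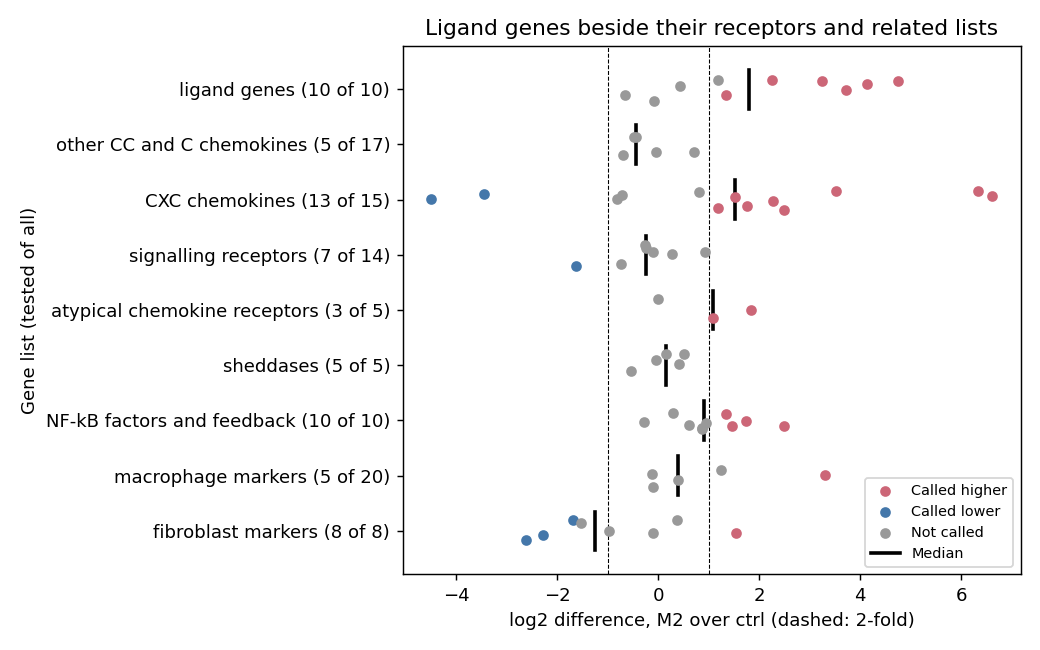
Log2 difference, M2 over ctrl (x axis), of each gene tested in the ligand list and related lists (y axis, with the number tested of all). Each point is 1 gene, red called higher, blue called lower and grey not called, black bars are medians and dashed lines mark 2-fold. The ligand genes have a median of 1.80 and the signalling receptors one of -0.23.

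Because macrophages and fibroblasts can make several of these ligands, their markers were counted beside them. The cells were sorted before culture as CD24+CD29hi and free of CD45, CD31 and TER119, a gate against blood and endothelial cells, and the co-cultured macrophages sat behind the membrane of the insert. The list of 20 macrophage markers held 1788 and 2401 reads in ctrl and M2 (log2 difference 0.36), or 43.1 and 54.9 RPKM summed. Most came from Arg1 (1507 and 2090 reads), which epithelial cells can also express, and without it 281 and 311 reads were left (0.08; -0.16 to 0.32). Cd68 (170 and 165 reads) and Csf1r were next, and when both, Arg1 and Cx3cr1 were left out, 16 ctrl and 52 M2 reads remained (log2 difference 1.57, 0.80 to 2.54). Most of those 52 reads were from Cd163, a scavenger receptor of macrophages, which rose from 2 to 30 reads. Of the 20 markers, 8 were at 0 in both libraries, and Lyz2, among the most abundant macrophage transcripts, had 3 and 1 reads. The part of the few macrophage reads in the differences of the ligands was not tested. In bulk RNA, fewer cells of a type and less RNA per cell cannot be told apart.

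The epithelial markers were uneven, beside 8.16% of all genes called higher and 6.55% lower. Of 9 luminal markers, 5 were called lower, the hormone receptors Esr1 (1028 and 281 reads) and Prlr (3967 and 1379), the transcription factors Elf5 (5704 and 2776) and Foxa1 (2443 and 873), and Kit (15110 and 4973), and 0 were called higher. The other 4 were not called, with log2 differences of 0.21 for Krt8, -0.05 for Krt18, 0.06 for Epcam and -0.78 for Krt19. The summed level of the 9 luminal markers was 1763 RPKM in ctrl and 1655 in M2. Of 7 basal markers, Krt17 was called higher (6051 and 16592 reads) and Oxtr lower (8324 and 1920), and the summed level was 3388 and 3627 RPKM. Whether these cells differ in the ligands they make was not tested.

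Of 8 fibroblast markers, 3 were called lower and 1 higher, against 6.55% and 8.16% of all genes. Their summed level was 38.6 RPKM in ctrl and 19.6 in M2. Col3a1 (1612 and 276 reads), Pdgfrb (259 and 55) and Col1a2 (4463 and 1457) fell, Dcn (51 and 157) rose, and the part of fibroblasts in the ligand levels was not tested. Of 5 endothelial markers, 3 were tested, with Pecam1 called higher (33 and 76 reads) and Cdh5 and Kdr lower (11 and 2, 11 and 0), and the 8 lymphocyte markers held 9 and 20 reads in all.

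Variation between cultures was assumed in a further test, since 1 library per group cannot give it. In the exactTest of edgeR with a biological coefficient of variation (BCV) of 0.4, Csf3, Csf2, Ccl20 and Ccl2 still passed both thresholds, with adjusted p-values of 0.000465, 0.0181, 0.0189 and 0.0467. At this setting 0.91% of all genes were called higher and 0.676% lower. At a BCV of 0.2 the same 4 ligands were called higher, against 5.01% of all genes, while 3.59% were called lower, and Ccl28 was lost (adjusted p = 0.101, edgeR exactTest). At 0.1 these 4 and Ccl28 were called higher, against 7.33% of all genes with 5.65% lower, and Ccl5 was lost (adjusted p = 0.0997, edgeR exactTest). Of the 38 genes of the other lists that were called, 36 were kept at a BCV of 0.1, 31 at 0.2 and 4 at 0.4. Those lost at 0.2 were Ackr3, Cxcl9, Cxcl15, Il33, Pecam1, Cdh5 and Elf5, and those kept at 0.4 were Cxcl3, Cxcl5, Cxcl13 and Cxcl14, so that 0 of the 4 NF-κB genes were kept at 0.4.

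The scale of the comparison mattered for the genes that differed little. Gapdh, the glycolytic enzyme used as reference in the qPCR of the study, went from 8400 to 29698 reads, a log2 difference of 1.75 (1.72 to 1.79). Scaled to Gapdh, the median of all genes moved to -1.76, and 1.58% of all calls were higher against 55.5% in the main scaling. Of all genes tested, 1.36% were then called higher and 84.7% lower. Csf3, Csf2, Ccl20 and Ccl2 were still called higher, at log2 differences of 3.00, 2.37, 1.96 and 1.5. Csf1, Cx3cl1 and Il34 were then called lower, at -1.31, -1.84 and -2.40, while Ccl28 turned to -0.40 and Ccl7 to -0.57, and Ccl5 (0.50) was no longer called.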

How the data were processed

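RNA of 2 cultures, 1 library per group, was analysed. The authors deposited unnormalized read counts of each gene. A SMARTER mRNA kit was used per the labels, and the submitters' processing notes name the builds GRCm38 and mm10. The aligner, counting tool and use of strand are not given in the sources used here. The series text calls the assay a microarray, but the values are sequencing counts. Start and end of 9 of the 10 ligand genes equal those of GENCODE M21.

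Genes with at least 10 reads over both libraries were tested. Library sizes were scaled by TMM in edgeR 4.0.16 under R 4.3.3. Log2 differences are of reads plus a pseudocount of 1. Each gene had a two-sided exact binomial test (SciPy 1.17.1), adjusted by Benjamini-Hochberg over all genes tested, with calls made below an adjusted p of 0.05 and from 2-fold. Intervals are 95% Clopper-Pearson (differences) or exact Poisson (levels) and cover counting error only, as no molecular identifiers are stated. Both kinds use the reads without the pseudocount. RPKM values were computed from the counts and the exon lengths of the table, with the scaled library sizes.

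The functions were tested on simulated data. The ligand genes and the other lists were chosen with earlier results of these data known. From each other list, the text names genes called and up to 4 with the most reads, macrophage markers at 0, and genes of the chromosome 11 cluster, and further genes were chosen after their values were seen. Further scalings, filters, pseudocounts, fold thresholds and assumed BCV values were tried.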

Additional observations from a re-analysis of the deposited data

How the results depend on the processing

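Ccl2, Ccl20, Csf2 and Csf3 were called higher under every alternative in which they were tested. When genes under 1 CPM in either library were dropped, only 3 ligand genes were tested (Cx3cl1, Csf1 and Il34) and 0 were called higher. The 6 called genes became 5 with a minimum of 1 read (Ccl5 lost), against 5.78% of all genes. They also became 5 at 4-fold (Ccl28 lost), against 3.20% of all genes. The number called lower became 1 at 1.5-fold (Il34), against 11.1% of all genes, and 3 scaled to Gapdh, against 84.7% of all genes. Of all genes, 2462 were called higher and 2143 lower at 1.5-fold, 616 and 494 at 4-fold, 797 and 583 with at least 1 CPM in both, 964 and 691 at a BCV of 0.2, 175 and 130 at 0.4, and 262 and 16282 scaled to Gapdh. Without division by exon length, Cx3cl1 and Csf1 held 98.0% of the ligand reads in ctrl and 93.0% in M2. The summed macrophage markers differed by 0.077 without Arg1 and by 1.57 without Arg1, Csf1r, Cx3cr1 and Cd68, both chosen after seeing the data.

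Scaled to Gapdh, a called difference turned or a call in the other direction arose for these named genes: Ccl28 -0.40, Csf1 -1.31, Ackr3 -0.66, Adam10 -1.60, Adam17 -1.24, Arg1 -1.35, Birc3 -0.011, Cxcl15 -0.56, Cxcl9 -0.24, Dcn -0.22, Flt3l -1.61, Krt17 -0.37, Mif -0.54, Nfkb1 -1.45, Nfkbie -0.29, Nfkbiz -0.41, Pdgfra -1.39, Pecam1 -0.64, Sdc1 -1.48 and Tslp -0.094. Calls in the other direction also arose for Nfkb2 (-1.15), Krt5 (-1.25), Krt8 (-1.54) and Epcam (-1.70). These turns follow from the scaling itself, which moves all genes by the difference of Gapdh. Genes between 0 and 1.75 that were uncalled in both scalings turned too, among them Ccl7 (-0.57), Nfkbia (-0.88), Relb (-0.88) and Rel (-0.81). The other 4 scalings reversed none of the called ligand genes. No paired analysis was possible because there was 1 library in each group, and for the same reason none could be left out. DESeq2 was not run, since it needs replicates. Depth limits Ccl5 and Ccl7, with 10 and 25 reads in all.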

Other observations

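A further list held 15 genes of other factors that act on macrophages or other myeloid cells. Of these, 12 were tested, 4 were called higher and 2 lower by the exact binomial test, against 8.16% and 6.55% of all genes. Spp1, which encodes the matrix cytokine osteopontin, rose from 4199 to 21651 reads (log2 difference 2.30). Vegfa, which attracts monocytes through Flt1 besides its role in vessels, had 934 and 7510 reads (2.94). Mif (703 and 1708 reads, 1.21) and the epithelial alarmin Tslp (15 and 52 reads, 1.66) were also called higher. The genes called lower were Gas6, a ligand of the receptors by which macrophages take up dying cells (12730 and 2526 reads, -2.40), and the alarmin Il33 (2629 and 1356 reads, -1.02). Flt3l, a growth factor of dendritic cells, was among the most abundant at 83.3 RPKM in ctrl and 92.3 in M2, close to the level of Cx3cl1, and differed by 0.15. Il3, a neighbour of Csf2, had 0 reads in both libraries.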
